A study of Homo sapiens with 3 samples.

Results

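The lineage genes described here were CD2, IL7R, CD8A and RAG2 of T cells, PAX5 and BLK of B cells, and CD14 and CEBPA of myeloid cells. H3K9me3 regions were taken as theirs where the deposited gene annotation of a region named the gene. That gave 23 regions of 54116, with 11 of 26938 in the control library and 12 of 27178 in the CXCL12 library. The genes were chosen by their mean signal in these same libraries, as the higher members of earlier lists of T cell, B cell and myeloid genes, although BLK lay near the median of all regions. That signal is therefore a description and not a finding, and so is any ratio between the libraries.

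Jurkat cells, an established line from a human T cell acute lymphoblastic leukaemia, were kept without serum for 90 min. They then received the chemokine CXCL12 (SDF) at 100 ng/ml for 15 min or stayed untreated, with 1 H3K9me3 library per condition. With no replicate there is no spread to test against, so no p-value is given. The identity of the line was not checked here, since no expression was measured and a region says only where the mark was called.

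H3K9me3 is the trimethylated form of lysine 9 on histone H3. The methyltransferases SUV39H1, SUV39H2 and SETDB1 write it, heterochromatin protein 1 binds it, and it is known for repeat DNA and silenced genes. In blood development, lineage genes are switched on in some branches and kept silent in others, and in mouse T helper cells SUV39H1 is needed to keep genes of the alternative fate silent. The question addressed by the series is whether a short CXCL12 exposure alters where the mark lies in leukaemic T cells.

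At these 8 genes H3K9me3 lay upstream of the gene, inside it or downstream of it. A recovered gene start was inside a region for 0 of 8 genes in control and for 1 of 8, CD14, after CXCL12, near the 14.3% and 14.5% of all genes with a region and a recovered start. CD2 carried the strongest region, upstream of the gene. Mean signals of the libraries differed by at most 1.30-fold at the 10 loci called in both, and 0 of them reached 2-fold in either direction. Of all 21541 shared loci, 0.116% were at least 2-fold higher and 0.176% at least 2-fold lower after CXCL12, so 0 of 10 says nothing particular about these genes. A difference of 1.5-fold was likewise reached by 0 of 10, against 4.19% of all shared loci.

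Gene starts were recovered from the deposited table, which lists for every region the distance from its highest bin, the summit, to the start of each gene. A start was kept where 2 or more different summits fitted a single start and strand, which gave starts for 6457 genes, all 8 lineage genes included. For 3 genes with 2 or more summits no single start was found. The listed position (upstream, in gene, downstream) follows the summit: all 5025 entries listed as upstream had a negative distance. A long region can therefore be listed as downstream of a gene that it covers, and of 9326 upstream or downstream entries with a recovered start, 1206 belonged to regions that held that start. Over single-gene regions, a promoter was counted when the nearest edge of the region lay up to 7.49 kb upstream or 2.49 kb downstream of the start, and not from 7.50 kb or 2.51 kb onwards. A counted promoter in this table is thus a wide window, and a region with 1 promoter need not touch the start.

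**Figure D1:**
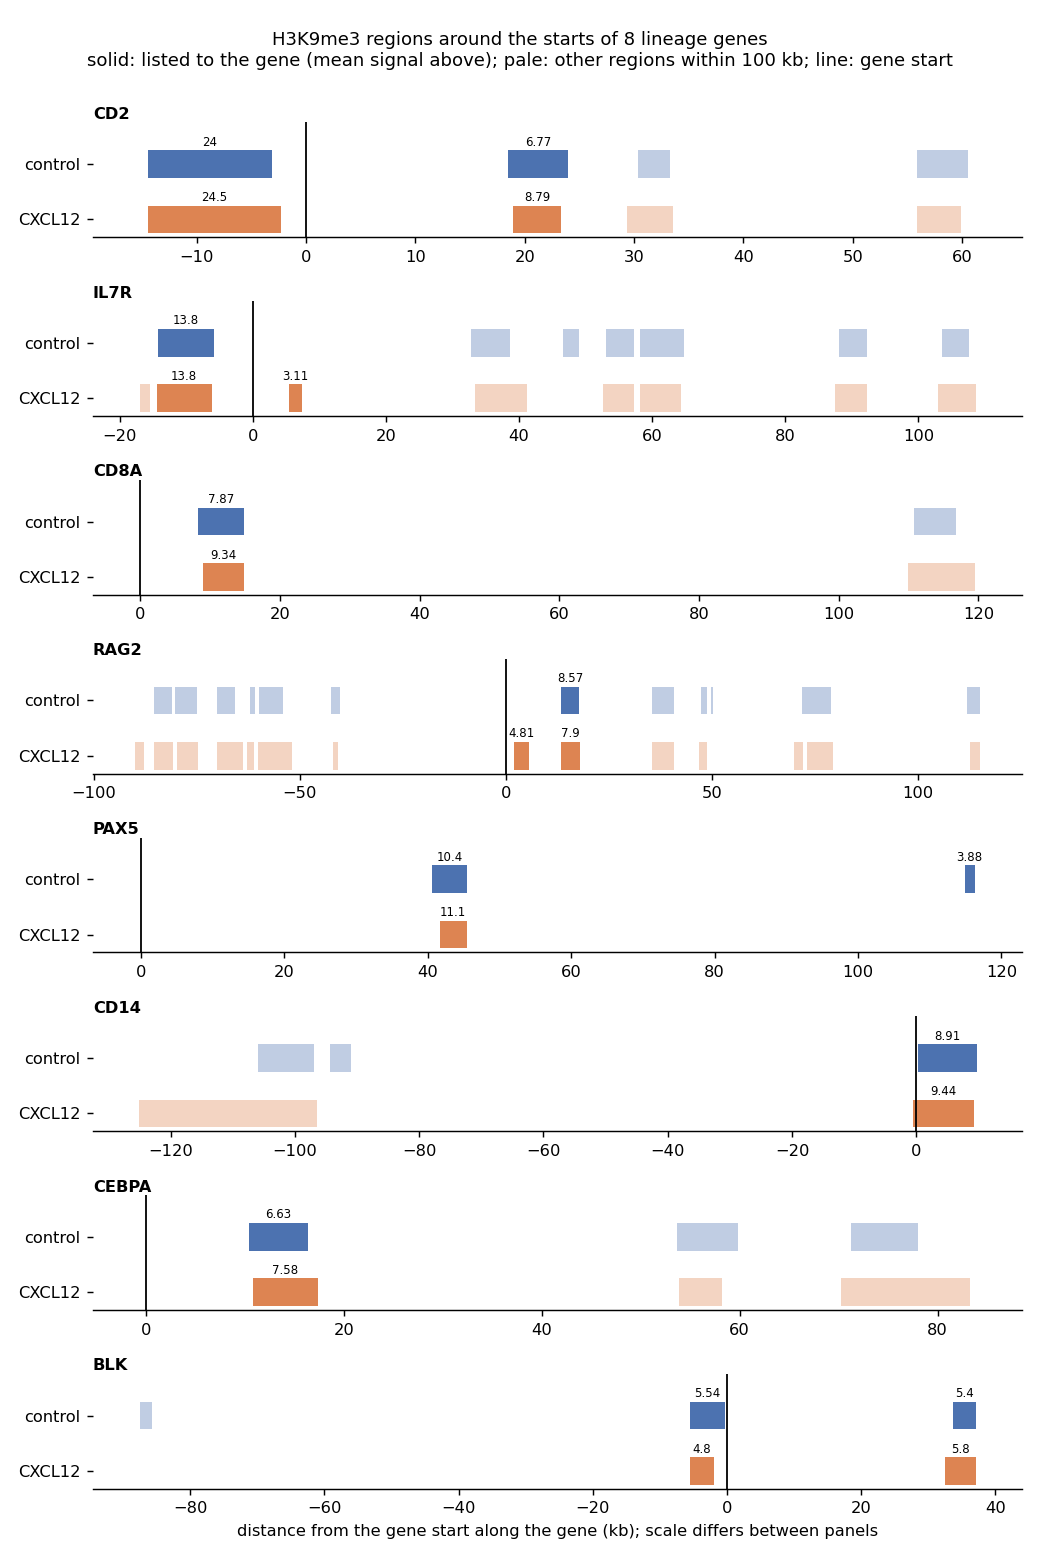
H3K9me3 regions around the starts of the 8 lineage genes, drawn along each gene's own direction, with distance from the start in kb on the x axis and a row for each library (control blue, CXCL12 orange). Solid boxes are regions listed to the gene with their mean signal above, and pale boxes are other regions within 100 kb; the start line lies inside a solid box only for CD14 after CXCL12.

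CD2 encodes an adhesion receptor of T cells and natural killer cells that binds CD58. Its upstream region spanned chromosome 1, 117282600 to 117293999, in control and reached 117294799 after CXCL12 (hg19, as for all regions below). This region averaged a signal of 24.0 per bin in control and 24.5 per bin after CXCL12, and the highest bin held 102 and 111. In both libraries it lay at percentile 99.9 of all regions by mean signal. The region began 14.5 kb before the start in both libraries and ended 3.09 kb before it in control and 2.29 kb before it after CXCL12. It held 1 CpG island and 1 promoter window, and its summit moved by only 32 bp between the libraries.

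A weaker CD2 region lay beyond the end of the gene, with its summit 21.1 kb past the start in control and 20.7 kb past it after CXCL12. It averaged 6.77 per bin in control and 8.79 after CXCL12, a log2 ratio of 0.38, which was the largest of the 10 shared loci. The highest bin went the same way, with 20 and 26. The called length went the other way, at 5400 bp against 4400 bp, and the log2 ratio of summed signal was 0.17. Within 100 kb, 2 further regions without a listed gene followed downstream in each library, with mean signals of 5.23 and 5.04 in control and 5.49 and 7.34 after CXCL12.

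IL7R encodes the alpha chain of the interleukin 7 receptor, which early lymphocytes need to survive. The IL7R region upstream of the gene, at chromosome 5, 35842800 to 35851199 in control and 35842600 to 35850799 after CXCL12, had a mean signal of 13.8 in each library. The highest bin was 51 in control and 34 after CXCL12, a log2 ratio of −0.58, while the mean had a ratio of 0.005. The near edge lay 5.79 kb before the start in control and 6.19 kb before it after CXCL12. A second IL7R region was listed after CXCL12 only, inside the gene from 5.41 to 7.41 kb past the start. It was among the weakest of that library, averaging 3.11 per bin (percentile 4.35) over 2000 bp, with 7 in its highest bin. The nearest control region was 11.2 kb away.

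Within 100 kb of IL7R each library held 6 further regions, all in or near CAPSL and UGT3A1 in control and 5 of them there after CXCL12. Their mean signals ran from 4.19 to 8.55 in control and from 4.05 to 6.56 after CXCL12, below the region upstream of IL7R.

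CD8A encodes the alpha chain of the CD8 co-receptor for class I MHC. A single CD8A region was called in each library, inside the gene at chromosome 2, from 87020600 to 87027199 in control and to 87026599 after CXCL12. It averaged 7.87 per bin in control and 9.34 after CXCL12 (log2 ratio 0.25), with highest bins of 27 and 30. The far edge was identical and the near edge lay 8.32 kb past the start in control and 8.92 kb past it after CXCL12. The next region began 111 kb past the start in control and 109.9 kb past it after CXCL12, and it carried no gene name.

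RAG2 encodes a subunit of the recombinase that cuts antigen receptor genes in both T and B cell precursors, and RAG1 encodes its catalytic partner. A region between these neighbouring genes was listed for RAG1, RAG2 and C11orf74 alike, at chromosome 11, 36602000 to 36606399 in control and 36601800 to 36606399 after CXCL12. It averaged 8.57 per bin in control and 7.90 after CXCL12, a log2 ratio of −0.12, and the highest bin was 24 in each. RAG2 and C11orf74 had a further region after CXCL12 only, 36614200 to 36617799, averaging 4.81 per bin with 14 in the highest. The nearest control region was 7.80 kb from it. This added region covered the recovered start of C11orf74 and ended 2.03 kb from the start of RAG2. Its mean lay at percentile 43.5 of the library, so it was the strongest of the 3 single-library regions at these genes.

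The RAG neighbourhood was the densest of the 8, with 11 other regions within 100 kb in control and 12 after CXCL12. The RAG1 region upstream of that gene had a mean of 6.39 in control and 7.08 after CXCL12. A region upstream of TRAF6, which encodes a ubiquitin ligase of immune receptor signalling, had 9.32 and 10.1. A gene-free region beyond C11orf74 had 8.42 and 10.5. Over all these neighbours the mean signal ran from 4.10 to 9.32 in control and from 3.48 to 10.5 after CXCL12, so the region listed to RAG2 lay within their range in each library.

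PAX5 encodes the transcription factor that commits cells to the B lineage. The PAX5 region called in both libraries lay inside the gene at chromosome 9, 36989000 to 36993799 in control and 36989000 to 36992799 after CXCL12. It averaged 10.4 per bin in control and 11.1 after CXCL12 (log2 ratio 0.10), with highest bins of 30 and 32. The summit lay 43.6 kb past the start in control and 42.8 kb past it after CXCL12, a shift of 832 bp, the largest of the 10 loci. The region was shorter after CXCL12, at 3800 bp against 4800 bp, and its summed signal had a log2 ratio of −0.21 where the mean was above 0. A weak second region of 1400 bp was called in control only, 116 kb past the start, averaging 3.88 per bin with 9 in the highest. The nearest CXCL12 region was 69.4 kb away, which is the shared PAX5 region. No other region lay within 100 kb in either library, and PAX5 alone of the 8 genes had an empty neighbourhood in both.

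BLK encodes a kinase of the Src family found in B cells, and it had the lowest signal of the 8 genes. Upstream of BLK the region ran from 11346000 of chromosome 8 to 11351199 in control and to 11349599 after CXCL12. It therefore stopped 322 bp before the start in control and 1.92 kb before it after CXCL12. It averaged 5.54 per bin in control and 4.80 after CXCL12 (log2 ratio −0.21), but the highest bin went the other way, with 14 and 17 at the same summit. The region was shorter after CXCL12 (3600 against 5200 bp), and its summed signal was 0.566 of the control value. Inside BLK a second region averaged 5.40 per bin in control and 5.80 after CXCL12, with highest bins of 15 and 13 and lengths of 3400 and 4600 bp. The measures disagreed in direction at both BLK regions, so neither has a direction that holds across them. Both lay near the median of all regions, which was 5.06 in control and 5.10 after CXCL12. Within 100 kb, control held 1 further region, inside C8orf12 with a mean of 6.14, and the CXCL12 library held 0.

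CD14 encodes the lipopolysaccharide co-receptor of monocytes and macrophages. Its region is listed as downstream because its summit lay 5.38 kb past the start in control and 5.03 kb past it after CXCL12. In control it spanned chromosome 5, 140003600 to 140012999, and stopped 287 bp short of the start at 140013286. After CXCL12 it spanned 140004000 to 140013799 and passed the start by 513 bp. Since the summit lies beyond the end of the gene and the opposite edge at or near its start, the region covers nearly the whole gene in control and all of it after CXCL12. Region edges move in steps of 200 bp, so the control edge was within 2 steps of the start. It averaged 8.91 per bin in control and 9.44 after CXCL12 (log2 ratio 0.08), with 24 and 32 in the highest bin (0.42). The region held 1 CpG island and 2 promoter windows, and it was also listed for TMCO6, whose start lay 6.01 kb from the region in control and 5.21 kb from it after CXCL12.

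Shown first are the 250 bases before the CD14 start in RefSeq sequence of GRCh38.p14 (chr5:140633176-140633425, minus strand). CD14 alone of the 8 genes had its recovered start inside a region, after CXCL12. The regions are in hg19 and were not placed on these bases. CD2 (chr1:116754180-116754429, plus strand) is shown as the gene with the strongest region nearby, and CEBPA (chr19:33302535-33302784, minus strand) as the richest in CG of the 7 genes with a promoter in the table. Capitals mark each CG, the dinucleotide that makes up CpG islands, and the start used by RefSeq may differ from the start in the deposited table.
CD14: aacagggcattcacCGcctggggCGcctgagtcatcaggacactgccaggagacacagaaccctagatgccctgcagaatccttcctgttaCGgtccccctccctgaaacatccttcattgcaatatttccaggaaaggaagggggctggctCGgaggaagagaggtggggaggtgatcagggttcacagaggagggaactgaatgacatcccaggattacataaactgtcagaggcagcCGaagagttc
CD2: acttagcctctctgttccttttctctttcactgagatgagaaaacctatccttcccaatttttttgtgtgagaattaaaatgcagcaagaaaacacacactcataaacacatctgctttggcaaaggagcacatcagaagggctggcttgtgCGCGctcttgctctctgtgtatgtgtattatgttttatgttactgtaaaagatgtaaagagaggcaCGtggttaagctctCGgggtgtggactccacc
CEBPA: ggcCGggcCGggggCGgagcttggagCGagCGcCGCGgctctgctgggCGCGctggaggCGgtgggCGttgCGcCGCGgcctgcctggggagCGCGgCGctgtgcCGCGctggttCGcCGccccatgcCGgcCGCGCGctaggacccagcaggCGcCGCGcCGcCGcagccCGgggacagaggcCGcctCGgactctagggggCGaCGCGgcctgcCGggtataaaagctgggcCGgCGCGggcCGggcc

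These promoters differ widely in CG content. The window held 5 CG at CD14, 4 at CD2 and 41 at CEBPA, against a median of 11 (quartiles 3 and 23) over 35116 promoter windows of the RefSeq table, of which 93.9% held at least 1. IL7R and RAG2 held 0, PAX5 held 27, and the 4 start sites listed for CD8A held 5 to 17. In control the nearest region lay 40.7 kb from the start of PAX5, 13.4 kb from RAG2, 10.4 kb from CEBPA and 8.32 kb from CD8A. It lay 5.79 kb from IL7R, 3.09 kb from CD2 and 0.287 kb from CD14. After CXCL12 the distances were 41.7 kb at PAX5, 10.8 kb at CEBPA, 8.92 kb at CD8A and 5.41 kb at IL7R. They were 2.29 kb at CD2, 2.03 kb at RAG2 and 0 kb at CD14. The places of RAG2 and IL7R thus differed between the libraries through regions called after CXCL12 only. The upstream region of IL7R, called in both, lay 6.19 kb from the start after CXCL12, farther than in control. Whether CG content and distance to the mark go together was not tested. BLK was not matched in that table.

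CEBPA encodes a transcription factor of granulocyte and monocyte differentiation. The CEBPA region lay downstream of the gene at chromosome 19, 33777000 to 33782999 in control and 33776000 to 33782599 after CXCL12. It averaged 6.63 per bin in control and 7.58 after CXCL12 (log2 ratio 0.19), with 18 and 22 in the highest bin and lengths of 6000 and 6600 bp. CEBPA and CD14 were the loci where mean, highest bin, summed signal and length were all higher after CXCL12, together with the upstream region of CD2. The nearest edge was 10.4 kb from the start in control and 10.8 kb from it after CXCL12. A gene-free region 53.6 kb past the start in control averaged 7.04 there and 9.54 after CXCL12. A region listed as upstream of SLC7A10, an amino acid transporter gene, had 7.63 and 5.04. The SLC7A10 region was longer after CXCL12, at 13000 bp against 6800 bp.

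**Figure D2:**
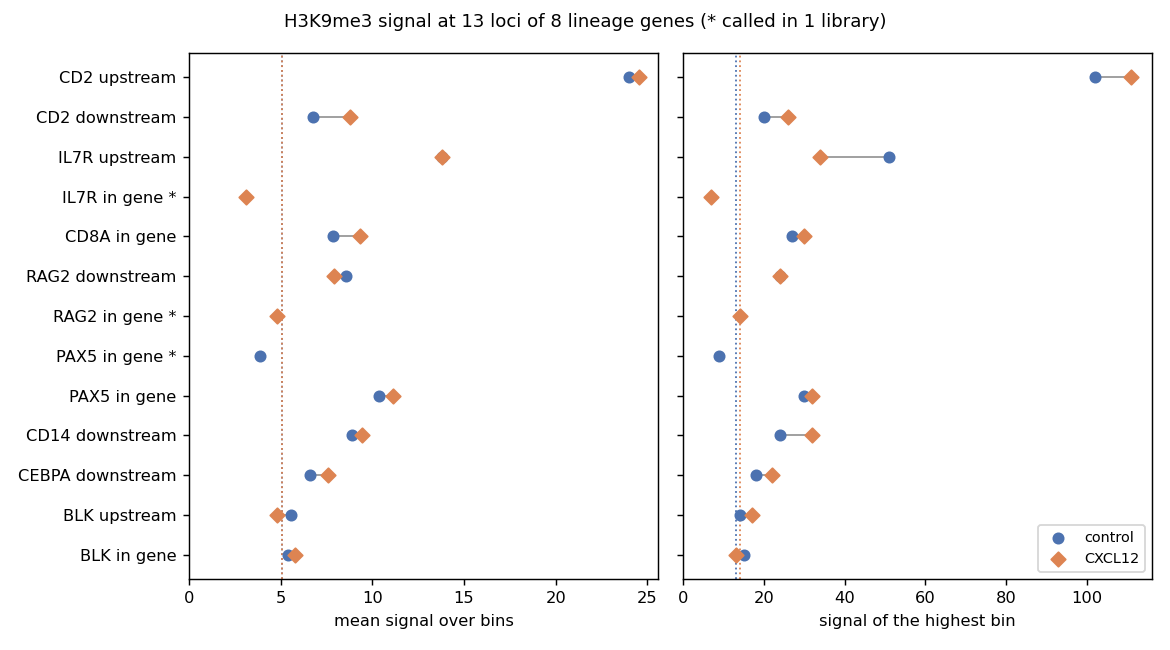
Mean signal (left) and signal of the highest bin (right), in the deposited units, at the 13 loci of the 8 genes, with control as circles, CXCL12 as diamonds and a grey line joining them. Dotted lines are each library's median over all regions (5.06 and 5.10 for the mean, 13 and 14 for the highest bin); the upstream CD2 region stands far to the right in both libraries, and the 3 single-library loci lie to the left of both medians of the mean.

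Across the 10 shared loci the mean signal was higher after CXCL12 at 8 and lower at 2, RAG2 and upstream BLK, with a median log2 ratio of 0.09 and a range from −0.21 to 0.38. Over all shared loci the median was 0.04 with quartiles of −0.12 and 0.20, and 57.0% were above 0. The CD2 downstream and CD8A loci lay above the upper quartile and upstream BLK below the lower quartile, at percentiles 91.1, 80.6 and 16.3 of all shared loci. By the highest bin 7 loci were higher, 2 lower and 1 equal, with a range from −0.58 at IL7R to 0.42 at CD14. The highest-bin ratio of IL7R lay at percentile 2.61 of all shared loci. By that measure 0 of 10 reached 2-fold, against 0.696% higher and 0.279% lower over all shared loci. By summed signal 6 were higher and 4 lower, from −0.82 at upstream BLK to 0.57 inside BLK, and 0 of 10 reached 2-fold against 2.85% higher and 1.00% lower over all shared loci.

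**Figure D3:**
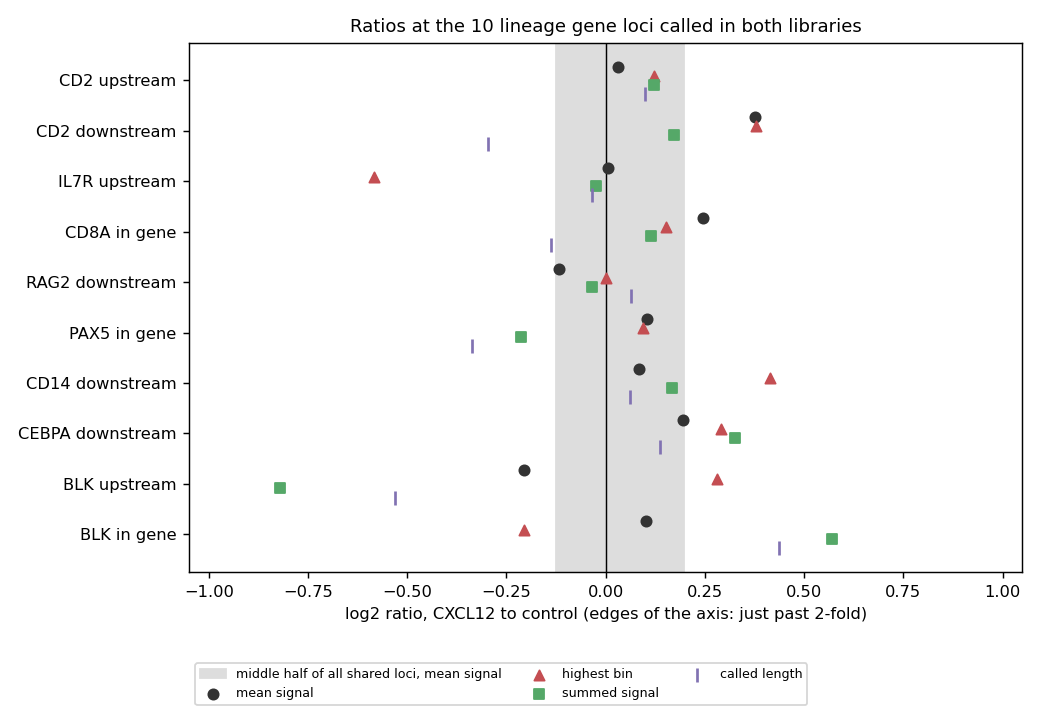
Log2 ratio of CXCL12 to control at the 10 loci called in both libraries, by mean signal (circles), highest bin (triangles), summed signal (squares) and called length (bars). The grey band is the middle of all shared loci by mean signal, from −0.12 to 0.20, and all symbols lie inside 2-fold; the measures lie on both sides of 0 at every locus but upstream CD2, CD14 and CEBPA.

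The edges and summits were close in both libraries. The summit moved by 0 bp at upstream BLK to 832 bp at PAX5, with a median of 296 bp, and the median over the 19143 loci with 1 region per library was 288 bp. The start coordinate was identical at 4 of 10 loci, namely upstream CD2, CD8A, PAX5 and upstream BLK, against 17.3% of those loci, and the end coordinate at 2 of 10, against 17.5%. The stretch called in both libraries took up 69.2% (upstream BLK) to 95.7% (RAG2) of the combined span, with a median of 84.9% against 76.0%. These measures are not independent of the choice of genes by signal.

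CpG islands and promoter windows were not used to choose the genes. A CpG island lay in 2 of 11 control regions and 2 of 12 CXCL12 regions, those of CD2 upstream and CD14, against 4.34% and 4.12% of all regions. A promoter window was counted in 4 of 11 and 5 of 12, against 8.29% and 8.10% of all regions. The fifth was the CXCL12-only region at RAG2 and C11orf74. The regions described here carry a gene by their choice, whereas all regions include those without one. They were also longer, with a median of 5400 bp against 4000 bp in control and 4600 bp against 4200 bp after CXCL12. The shares are therefore not like for like. No share over regions with a gene, or over regions of like length, was computed, so these counts are a description and not a finding. Of all genes with a recovered start and a region, the start itself was covered at 14.3% in control and 14.5% after CXCL12.

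Among a wider set of T cell genes, 22 of 49 (44.9%) had an H3K9me3 region in control and 23 (46.9%) after CXCL12. Of 20056 protein-coding genes the shares were 27.9% and 28.0%. The added gene was ICOS, with a weak region downstream (mean 3.10). The list includes CD2, IL7R, CD8A and RAG2, which were chosen by their signal, and all the lists were chosen with earlier results of these data known. Its share is therefore a description and not a finding. RAG1 and RAG2 also have a region in common. Next to CD2, IL7R, CD8A and RAG2 the highest signals were at DNTT, the terminal transferase of antigen receptor joining, with 7.71 in control and 7.49 after CXCL12, and at RAG1 with 7.38 and 7.47 over its regions. Of the 36 shared loci of the T cell list, 23 were higher and 13 lower after CXCL12, with a median log2 ratio of 0.10. Over all shared loci 57.0% were higher, with a median of 0.04.

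Of 35 B cell genes, 11 carried a region in control and 9 after CXCL12, the difference being EBF1 and CIITA. These shares of 31.4% and 25.7% lay near the 27.9% and 28.0% of all protein-coding genes, so the counts say nothing particular about B cell genes. PAX5 led with a mean over its regions of 8.92 in control and 11.1 after CXCL12, a difference that rests in part on the weak region called in control only. BACH2, a transcriptional repressor of B and T cells, had 7 regions in control and 8 after CXCL12, with a mean over them of 6.12 and 7.89. Downstream of BACH2 a locus had 6.19 and 11.1, a log2 ratio of 0.84 with lengths of 6000 and 3800 bp. Inside BACH2 another locus had a log2 ratio of 0.01 by the mean but highest bins of 25 and 50, a ratio of 2-fold. FCRL1, an Fc receptor-like protein, had 7.08 and 7.20, and the complement receptor gene CR1 had 7.05 and 4.79. TNFRSF13B had 6.19 and 5.14. Means per gene pool all its regions. At CR1 and TNFRSF13B they include weak regions called after CXCL12 alone (2.93 and 2.76), and at CR1 also a control-only region (5.56), so these pairs do not compare the same DNA. Elsewhere in the lists genes with several regions carry the same limit. The shared CR1 locus had 7.96 and 6.41, a log2 ratio of −0.31. The shared TNFRSF13B loci went both ways, with 7.38 and 5.07 (−0.54) and with 5.125 and 6.74 (0.39). The B cell coactivator gene POU2AF1 had 5.07 and 5.59. The 17 shared loci had a median of 0.10, with 11 higher and 6 lower, against 57.0% higher over all shared loci. A further 7 loci were called in the control library alone and 4 in the CXCL12 library alone.

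Of 44 myeloid genes, 13 carried a region in each library, 12 of them in both. That share of 29.5% also lay near the 27.9% and 28.0% of all protein-coding genes. CD14 led with the values above. CTSG, which encodes the neutrophil protease cathepsin G, had 7.96 in control and 8.17 after CXCL12, TLR2, a receptor for bacterial lipoproteins, had 7.22 and 6.90, and the proteoglycan gene VCAN had 7.17 and 5.86. S100A8 and S100A12, calcium-binding proteins of neutrophils, were listed for 1 and the same region, with 6.79 and 6.43. A locus upstream of TLR2 had 9.20 and 5.85, the lowest ratio of the list at −0.65, over 3200 bp against 4600 bp. The 15 shared loci had a median of 0.03, with 10 higher and 5 lower, against 57.0% higher over all shared loci.

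Of 22 natural killer genes, 11 (50%) carried a region in control and 10 (45.5%) after CXCL12. The shares of all protein-coding genes were 27.9% and 28.0%. Several of the natural killer genes are KIR genes, and KIR2DL4 and KIR3DL1 have a region in common, so the genes are not independent. This list too was chosen with earlier results known, so its share is a description and not a finding. The KIR receptor genes lie in a tandem cluster of near-identical copies, so the assignment of reads among them is uncertain, and KIR3DL2 had 6.26 and 8.10, KIR2DL4 6.75 and 5.47 and KIR2DL1 5.69 and 4.74. Outside that cluster KLRB1 had 7.24 and 7.22, the transcription factor gene TBX21 5.94 and 6.18, and the cytotoxic protease gene GZMB 4.90 and 5.67. Of 29 erythroid and megakaryocyte genes, the same 5 (17.2%) carried a region in both libraries, against those 27.9% and 28.0%. The erythroid transcription factor gene KLF1 had 9.57 and 7.53, GYPC 7.72 and 7.63, and the ankyrin gene ANK1 5.65 and 4.81. The 9 shared natural killer loci had a median log2 ratio of 0.06, with 5 higher and 4 lower. At the 10 erythroid and megakaryocyte loci the median was 0.003, with 5 higher and 5 lower. By mean signal, 0 loci in any of the 5 lists were 2-fold apart. Loci at least 2-fold higher after CXCL12 by the highest bin were the BACH2 locus given above, a locus inside FCRL1 with 7 and 15, and a locus downstream of TLR8 with 6 in control and 18 after CXCL12, where the called length was 2600 and 8000 bp.

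**Figure D4:**
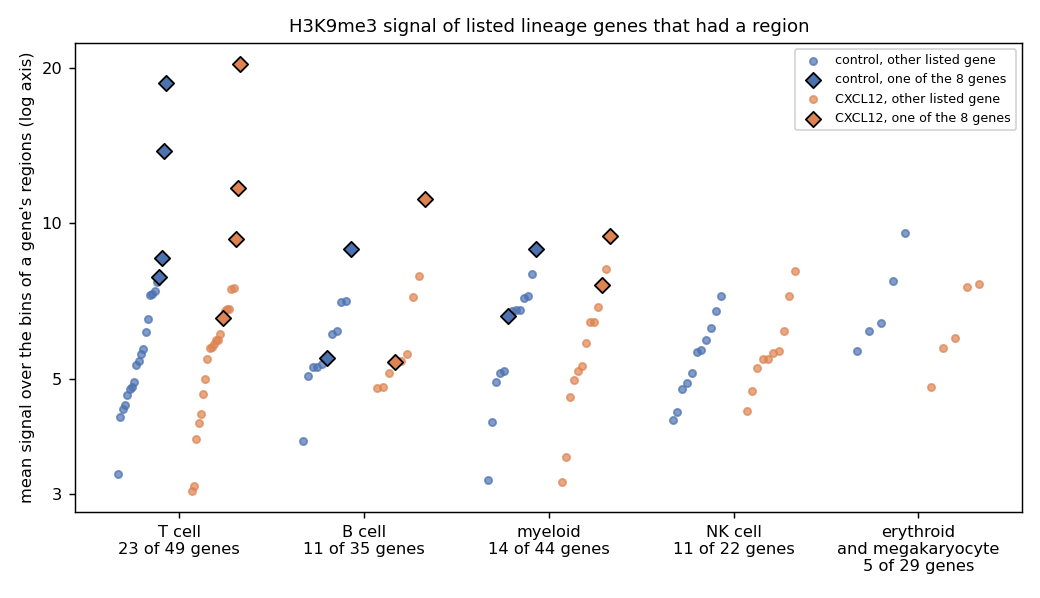
Mean signal over the bins of a gene's regions (y axis, log scale, deposited units) for each listed lineage gene with a region, by list, with control in blue and CXCL12 in orange and the 8 genes as diamonds. The counts under each list are genes with a region in either library; CD2 stands highest at 18.7 in control and 20.3 after CXCL12, and BLK lies among the other B cell genes.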

How the data were processed

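The deposited table lists H3K9me3 regions per immunoprecipitated library. Per the submitters' processing notes, the tools were BWA 0.7.12 and SICER 1.1 and the build hg19; their settings, the read depth and any scaling or input correction are unknown here. Per the file headers, the authors deposited the average signal of each region's bins and its highest bin. Without depth no counting interval was placed on them, and no correction for copy number was made here. The input library was not analysed here. Whether coordinates count from 0 or 1 is not given, and lengths include both ends.

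Regions of either library sharing at least 1 bp were chained into loci with pandas 2.3.3. A locus mean pools all bins called there in a library, and the log2 ratio of CXCL12 to control used no pseudocount. The steps were tested on simulated data. The 8 genes and 5 lineage lists (T cell, B cell, myeloid, natural killer, and erythroid and megakaryocyte) were chosen with earlier results of these data known. From each list, up to 6 genes with the highest mean signal were named; ICOS, EBF1, CIITA, TLR8 and S100A8, and the single loci at BACH2, FCRL1 and TLR2, were chosen after their values were seen. Protein-coding genes came from a RefSeq table (GRCh38.p14), and promoter sequences from RefSeq matched 7 of 8 genes. Some listed genes are not reported here.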

Additional observations from a re-analysis of the deposited data

How the results depend on the processing

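No loci among the 10 shared ones were 2-fold apart (0 of 10) by mean signal, highest bin, summed signal, a pseudocount of 1, centring, a stricter overlap or joining of regions up to 1 kb apart, and 0 reached 1.5-fold by mean signal. Their median log2 ratio of 0.093 was 0.137 by the highest bin, 0.117 by summed signal, 0.081 with a pseudocount of 1 and 0.053 after centring on the median of all shared loci. Centring left 6 loci above 0 and 4 below. Counting only regions listed as in the gene reduced the genes with a region to 10 for T cells (23 in either library otherwise), 3 for myeloid cells (14) and 6 for natural killer cells (11). It left 9 for B cells (11) and 4 for erythroid cells and megakaryocytes (5). The share of all protein-coding genes under that rule was not computed, so these counts have no background beside them. No paired analysis was possible because each group has 1 library, and for the same reason no replicate could be left out. The depth of the libraries is unknown, so weak regions called in a single library cannot be told apart from regions just under the calling limit of the other.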
